A study of Bos taurus with 13 samples.

Results

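In bovine mesenchymal stem cells that had been heated for 6 h and then returned to 37 °C for 66 h, 324 genes had lower RNA levels than in cells kept at 37 °C for 3 days. These genes were selected by the size and separation of that difference. Values were transformed as log2(value + 1), and R denotes the mean of the recovery group minus the mean of the 3-day control on this scale. A gene was a member when its mean value over the 13 libraries was at least 50 and under 20000, its R was at most -0.5 and both recovery values lay below both control values. An R of -0.5 leaves 70.7% of the control level. The 324 members were 2.9% of the 11182 genes in that value range and 1.95% of the 16595 genes in the table. Of these, 113 were already at or below -0.5 when 6 h of heat was compared with its own control, and these are described apart from the other 211.

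The cells were primary adherent cultures from umbilical cord, used at early passages and seeded a day before treatment. Their polyadenylated RNA was sequenced in 5 groups. The 6 h control (ShortNT, n = 3) was kept at 37 °C for 6 h and the 6 h heat group (ShortHS, n = 3) at 40.5 °C for 6 h. The 3-day control (LongNT, n = 2) was kept at 37 °C for 3 days and the 3-day heat group (LongHS, n = 3) at 40.5 °C for 3 days. The recovery group (ShortHS_Recovery, n = 2) had 6 h at 40.5 °C followed by 66 h at 37 °C. All groups shared the same serum-containing low-glucose medium. The labels do not say whether replicates came from separate animals, so p-values measure only the spread between these libraries, which may be technical.

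Mesenchymal stem cells are stromal cells that grow attached to plastic and can form bone, fat and cartilage. Heat above the normal body range unfolds proteins, releases heat shock factor to induce chaperone genes, and lowers the output of many other genes while the stress lasts. After return to the normal temperature this acute response is known to wind down, which is why a later sample separates lasting from passing changes. The genes are given in the table as Ensembl identifiers that are not paired with names here, so neither the members' functions nor the markers of the labelled cell type are described. Sequenced depth ran from 14859428 to 39117065 reads per library, with the shallowest library in the recovery group. In the groups with 3 libraries, replicate 3 stood apart from the other two, and the 3-day control and recovery groups hold only replicates 1 and 2.

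The differences that chose the members were mostly modest. The median R was -0.63, which corresponds to 64.8% of the 3-day control level, and the lowest was -1.5, or 35.4%. Only 8 members reached -1 or lower, 60 lay above -1 and up to -0.75, and the remaining 256 lay above -0.75. Of 330 genes in the value range with R of -0.5 or lower, 6 were not members because their groups overlapped. By limma, 16 of the 324 members passed an adjusted p of 0.05 for this comparison, beside 0.153% of all 13684 tested genes called lower. The selection favours such calls, so the count is no support for the members. The 16 were 4.94% of the members, and the others did not pass. A mirrored rule for genes higher after recovery selected 304 genes, or 2.72% of the value range. Of these, 69 (22.7%) passed as higher by limma, beside 0.643% of all tested genes.

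Members just inside and just outside the threshold were nearly the same in size. The last gene inside, with R of -0.50, had values of 346 and 442 after recovery and 550 and 558 in the 3-day control. The first gene outside, also with R of -0.50 after rounding, had 132 and 147 after recovery and 198 and 197 in the control.

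Members were more frequent among genes with low values. They made up 6.05% of genes with a mean value from 50 to 100, 3.98% from 100 to 500, 2% from 500 to 2000 and 1.55% from 2000 to 20000. Genes of the mirrored rule were likewise most frequent in the lowest band. They numbered 61 of 893, 126 of 3722, 80 of 4505 and 37 of 2062 genes in these bands. The lowest recovered read count of a member in any 3-day control or recovery library was 2, and 35 members had fewer than 20 reads in at least 1 of the 13 libraries. Across the 324 members the median of the lowest count was 100 reads.

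As a list, the members were highest at 6 h and lowest after recovery and after 3 days of heat. Each gene was centred on its mean over the 13 libraries, and the median over the members was taken in each library. This level was 0.58, 0.56 and 0.85 in the 6 h control and 0.18, 0.19 and 0.53 in the 6 h heat libraries. It was 0.002 and 0.18 in the 3-day control, -0.54 and -0.53 after recovery, and -0.80, -0.78 and -0.31 after 3 days of heat. The recovery libraries lay below both 3-day controls, which the rule fixes, while replicate 3 of the 3-day heat group lay above both recovery libraries. Over all genes in the value range the same medians stayed between -0.01 and 0.01.

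**Figure D1:**
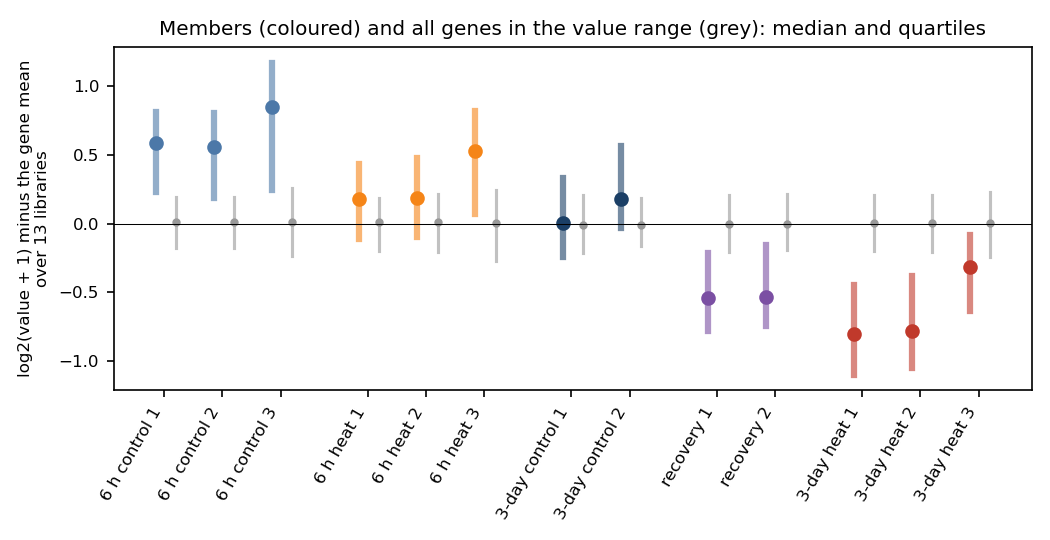
Median (points) and quartiles (bars) over the 324 members, coloured by group, and over the 11182 genes in the value range, in grey, of log2(value + 1) centred on each gene's mean over 13 libraries. The members' medians go from 0.85 in replicate 3 of the 6 h control to -0.80 in replicate 1 of the 3-day heat group.

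The 3-day control, against which the members were chosen, was itself below the 6 h control for many of them. Relative to the 6 h control, the median member stood at 80.1% after 6 h of heat, 67.5% in the 3-day control, 43.4% after recovery and 39.4% after 3 days of heat. Over all genes in the value range these medians were 99.1%, 98%, 99.1% and 101%. The 6 h control had the highest of the 5 group means in 178 members (54.9%) and the 3-day control in 82 (25.3%). The 6 h heat group had it in 56 (17.3%) and the 3-day heat group in 8 (2.47%). In the value range these shares were 22%, 13.4%, 22.8% and 24.3%. The recovery group had the lowest mean in 127 members (39.2%) and the 3-day heat group in 170 (52.5%), against 18.5% and 24.2%. The rule bars the recovery group from the highest place and the 3-day control from the lowest, which tilts these counts. The 3-day control and recovery means also lack a replicate 3, which was raised in the members in the other groups. These percentages and counts were not recomputed without it. In bulk RNA, fewer cells expressing a gene and less of its RNA per cell cannot be told apart.

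The response to 6 h of heat was measured between groups that do not enter R, although their libraries count in the mean value that the rule limits. With that mean taken over the 3-day control and recovery libraries alone, 323 genes met the rule, 309 of them members. At 6 h, 83 members (25.6%) were lower and 18 (5.56%) higher at an adjusted p of 0.05 by limma, beside 16.7% of all tested genes lower and 14.8% higher. Of the 83, 75 were among the 113 already lowered members and 8 among the other 211 (3.79% of these). That split is cut on the same 6 h values, so it only describes where the calls lie. Of the 323 genes, 87 were lower and 17 higher. The median log2 change of the members was -0.32, with quartiles of -0.64 and -0.003, and the median over all tested genes was -0.01. With the replicate number as a block, 147 members were lower and 30 higher, beside 23.8% and 20.8% of all tested genes. The median change was below 0 between each pair of libraries with the same number. It was -0.36 between libraries numbered 1, -0.29 between those numbered 2 and -0.30 between those numbered 3, and 243, 241 and 234 of the 324 members were below 0. Of genes in the value range, 51.5%, 50.9% and 52.5% were below 0.

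The libraries were also compared by complete separation, which takes no account of the replicate number. In 100 members (30.9%) every 6 h heat value lay below every 6 h control value, against 24.1% of genes in the value range. In 23 members (7.1%) every heat value lay above, against 21.9%.

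By the size of the 6 h difference the members fell into classes of unequal size. The 113 already lowered members were 34.9% of the list, while 11.9% of genes in the value range were at or below -0.5 at 6 h. Another 183 members were between -0.5 and 0.5, and 28 members (8.64%) were at or above 0.5, where 9.21% of the value range lay. The median R was -0.63 in the already lowered class, -0.61 in the class between and -0.65 in the raised class, all close to the limit of -0.5 that the rule sets. This split uses the 6 h values, and no test is given on it.

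**Figure D2:**
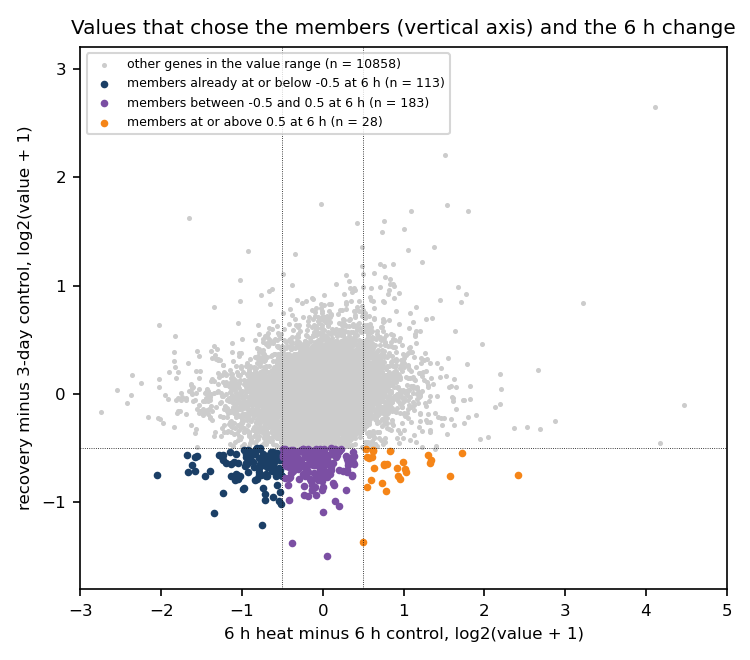
Each point is a gene in the value range, with the 6 h heat minus 6 h control difference on the horizontal axis and the recovery minus 3-day control difference on the vertical axis, both in log2(value + 1). Members lie below the dotted line at -0.5 by construction, and 113, 183 and 28 of them fall left of, between and right of the vertical lines.

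The 113 already lowered members stood at 58.1% of the 6 h control after 6 h of heat in the median. They were at 64% in the 3-day control, 41.3% after recovery and 32.9% after 3 days of heat. Their median 6 h difference was -0.78, and in 30 of them R was more negative than the 6 h difference. The lowest 6 h difference in this class was -2.05.

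The 211 other members were at 92.8% of the 6 h control after 6 h of heat, 74.3% in the 3-day control, 46% after recovery and 47.1% after 3 days of heat. Their centred library levels were -0.61 and -0.60 after recovery and -0.71, -0.64 and -0.28 after 3 days of heat. Replicates 1 and 2 of the 3-day heat group thus lay below both recovery libraries, and replicate 3 lay above them. The 28 members raised at 6 h lay above the 6 h control by construction, because this class was cut at a 6 h difference of 0.5 or more. By limma, 18 members of the whole list were called higher at 6 h, not all of them in this class. The class thus includes members that were not called higher. Medians of the 28 were 173% of the 6 h control after 6 h of heat, 87.8% in the 3-day control, 54.3% after recovery and 86.6% after 3 days of heat. For these 28 the recovery group held the lowest of the class medians.

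A second comparison between groups that do not enter R set 3 days against 6 h at 40.5 °C. Here 220 of the 324 members (67.9%) were lower after 3 days and 8 (2.47%) were higher, at an adjusted p of 0.05 by limma. Of all tested genes, 22.2% were lower and 21.8% higher. Of the 323 genes chosen without these libraries, 216 were lower and 9 higher. The median log2 change was -0.91 in the members, with quartiles of -1.35 and -0.43, and -0.003 over all tested genes. Time at 40.5 °C and time in culture cannot be told apart in this comparison. With the replicate number as a block, 251 members were lower and 14 higher, beside 28.4% and 27.9% of all tested genes. The 8 higher members became 5 without replicate 2 of the 6 h heat group, or without replicate 1 or replicate 2 of the 3-day heat group.

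The fall was of nearly the same size in each numbered pair of heated libraries. It was -0.92, -0.92 and -0.90 in the median for the libraries numbered 1, 2 and 3, and 280, 277 and 289 of the 324 members were below 0. Of genes in the value range, 50.9%, 51.4% and 50.7% were below 0. In 209 members (64.5%) every 3-day heat value lay below every 6 h heat value, against 30% of genes in the value range. Only 12 (3.7%) showed complete separation upwards, against 28.3%.

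**Figure D3:**
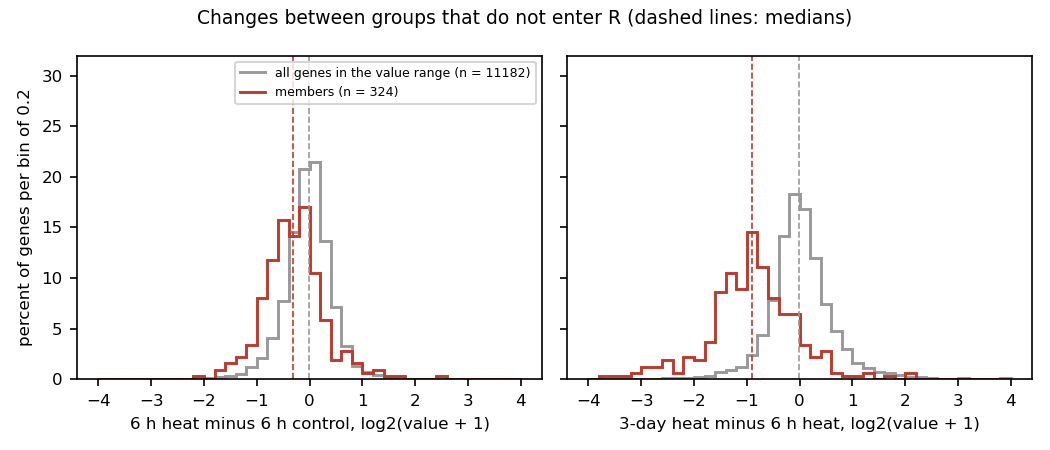
Percent of genes per bin of 0.2 in the 6 h heat minus 6 h control difference (left) and the 3-day heat minus 6 h heat difference (right), in log2(value + 1), for the 324 members in red and the 11182 genes in the value range in grey. Values beyond the axis are counted in the end bins, and the members' medians, drawn dashed, are -0.32 and -0.91.

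The comparisons against the 3-day control share its 2 libraries with the rule, so their values are descriptions. For recovery against the 3-day control the members' median was -0.63. For 3 days of heat against the 3-day control it was -0.72, with 170 members called lower and 5 higher by limma, beside 20.3% and 20.1% of all tested genes. For the 3-day against the 6 h control it was -0.57, with 132 members called lower and 26 higher, beside 13.6% and 11.7%. The 6 h control and 3-day heat groups hold a replicate 3 and the 3-day control does not. These medians and calls were not recomputed without replicate 3. In 187 members (57.7%) both 3-day control values lay below every 6 h control value, against 30.4% of the value range, and in 57 (17.6%) both lay above, against 25.5%.

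Sorted by the difference between the controls, the members made a large class that was lower at 3 days and a smaller one that was higher. The first class, with a 3-day minus 6 h control difference of -0.5 or lower, held 168 members (51.9%), while 9.53% of the value range lay there. Replicate 3, present only in the 6 h control of this pair, enters the cut, and the classes were not recut without it. The centred level of this class was 0.71, 0.71 and 1.06 in the 6 h control libraries and -0.18 and 0.03 in the 3-day control. Its median difference between the controls was -0.91, and its median recovery mean was -1.5 relative to the 6 h control. Both limits together place every recovery mean of this class below the 6 h control. Between the heated groups the median 3-day minus 6 h difference of this class was -1.05.

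The second class held 99 members whose controls differed by less than 0.5. Their median recovery mean was -0.77 relative to the 6 h control, and their median difference between the heated groups was -0.82. The limits on R and on the controls again place every recovery mean of this class below the 6 h control. The third class held 57 members (17.6%) that were higher in the 3-day control by 0.5 or more, a class with 12.4% of the value range. Their median difference between the controls was 0.92, and after recovery they stood 0.35 above the 6 h control. Of these 57, 48 had a recovery mean above that of the 6 h control and 9 below it. This position is the difference between the controls plus R, and both were limited by the selection, so the split is a description. After 3 days of heat they were -1.51 relative to the 3-day control in the median.

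**Figure D4:**
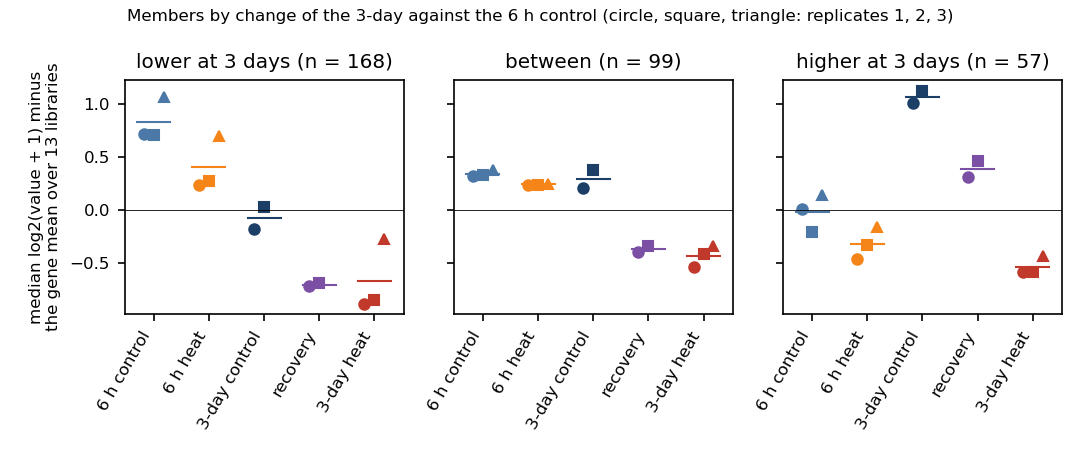
Median over members of log2(value + 1), centred on each gene's mean over 13 libraries, for the classes lower (168), between (99) and higher (57) at 3 days than at 6 h at 37 °C. Each symbol is a library, lines are means of the library medians, and replicate 3 (triangles) is above replicates 1 and 2 in the class lower at 3 days.

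The members differed between replicates more than other genes did, also in groups that do not enter R. The median SD over replicates on the log2 scale was 0.25 in the 6 h control, 0.29 in the 6 h heat group and 0.33 in the 3-day heat group. Over the value range, which was not matched to the members by mean value, it was 0.14, 0.13 and 0.11. Replicate 3 was above the mean of replicates 1 and 2 by a median of 0.26 in the 6 h control, 0.34 in the 6 h heat group and 0.41 in the 3-day heat group, while the value range gave 0.02, -0.01 and 0.003. In the class lower at 3 days these offsets were 0.33, 0.47 and 0.58, and in the class higher at 3 days they were -0.01, 0.10 and 0.02. Some members met the lower limit of the mean value only through other groups, but the 323 genes chosen without these groups gave SDs of 0.25, 0.29 and 0.34 and offsets of 0.26, 0.35 and 0.42. The part of whatever sets replicate 3 apart in the members' changes was not tested. Within replicates 1 and 2 the members' median was -0.32 for 6 h heat minus 6 h control. For 3-day heat minus 6 h heat it was -0.90. The 6 h median was -0.23 without replicate 3 of the control and -0.43 without replicate 3 of the heat group. Between the heated groups it was -0.74 without replicate 3 of the 6 h group and -1.02 without replicate 3 of the 3-day group.

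The pair of 3-day controls also differed along the same list. Replicate 2 was above replicate 1 in 276 of the 324 members, by a median of 0.21, against 52.6% of genes and a median of 0.01 in the value range. The recovery libraries differed less, with replicate 2 above replicate 1 by a median of 0.05 in the members. The median difference between recovery and control was accordingly -0.55 between libraries numbered 1 and -0.71 between those numbered 2. The rule applied without replicate 1 of the 3-day control selected 577 genes, 311 of them members, and without replicate 2 of that control it selected 233, of which 177 were members.

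To see whether the difference recurred in libraries that had not selected it, genes were chosen on a single numbered pair and read in the other. Of genes in the value range, 303 had a recovery minus control difference of -0.5 or lower between the libraries numbered 1. Between the libraries numbered 2 these 303 had a median of -0.55, 281 (92.7%) were below 0 and 171 (56.4%) were again at -0.5 or lower. Over the value range 51.4% were below 0 there and 4.87% at -0.5 or lower. Chosen on the libraries numbered 2, 545 genes had a median of -0.38 between the libraries numbered 1. Of these 545, 479 (87.9%) were below 0 and 171 (31.4%) at -0.5 or lower, where the value range gave 50.5% and 2.71%. The 171 are the same genes in both readings, those at -0.5 or lower in both pairs. No p-value is given, because the genes of a library are not independent.

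Individual members are shown for the contrasting courses that the list held. ENSBTAG00000014312 had the lowest R. Its normalised values were 60.7 and 74.4 in the 3-day control and 20.3 and 26.4 after recovery. They were 78.8, 94.9 and 67.6 in the 6 h control, 80, 65.5 and 107 in the 6 h heat group and 41.5, 44.4 and 53.5 after 3 days of heat. The recovery values were thus the lowest of all 13, and the 6 h groups overlapped. Its 6 h log2 change was 0.05 (SE 0.22, limma adjusted p 0.894), and it was lower after 3 days than after 6 h at 40.5 °C by limma (-0.82, SE 0.22, adjusted p 0.00979). The recovery values rest on 27 and 16 reads.

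ENSBTAG00000004221 had the lowest R among members already lowered at 6 h, at -1.21. Its values were 5777, 5625 and 5378 in the 6 h control and 3004, 2882 and 4194 in the 6 h heat group. It fell by 0.76 on the log2 scale at 6 h (SE 0.14), and no heat value reached a control value. Its class was cut on this 6 h difference, so no test is given on it. In the later harvest the 3-day controls were at 3943 and 4978, the recovery libraries at 1944 and 1897, and the 3-day heat libraries at 266, 282 and 219. From 6 h to 3 days at 40.5 °C it fell by 3.70 (SE 0.14, limma adjusted p 6.71e-08), and the recovery group lay between the 3-day groups without overlap.

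ENSBTAG00000000434 had the largest 6 h rise among the members that passed the test. Its values went from 1159, 1155 and 800.2 in the 6 h control to 6157, 5740 and 4566 in the 6 h heat group, a log2 change of 2.41 with SE 0.16 and an adjusted p of 2.37e-06 by limma. After 3 days of heat the values were 3046, 3349 and 2520, all below those after 6 h of heat (log2 change -0.88, SE 0.16, limma adjusted p 0.00108). The 3-day controls had 1347 and 1567, and the recovery libraries 877 and 848.5. It was thus above the control of the same duration in both continuously heated groups and below it after the return to 37 °C, with R of -0.75. Its recovery values lay within the range of the 6 h control.

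ENSBTAG00000001728 had the largest rise from 6 h to 3 days at 40.5 °C among the members past the adjusted p of 0.05. The 6 h control held 49.3, 43.3 and 36.7 and the 6 h heat group 26.2, 30.2 and 22.8, a log2 change of -0.69 (SE 0.17, limma adjusted p 0.00943). With only those groups fitted the adjusted p was 0.0602, and at equal depth the change was -0.50 with an adjusted p of 0.0526. This gene is among the 113 members already lowered at 6 h. That class was cut on the same 6 h difference, so these p-values only describe it. The 3-day controls were at 217 and 259, the recovery libraries at 141 and 180, and the 3-day heat libraries at 107, 119 and 108. The rise between the heated groups was 2.04 (SE 0.17, limma adjusted p 6.11e-06). All 3-day values exceeded all 6 h values, in the order control, recovery, heat without overlap.

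**Figure D5:**
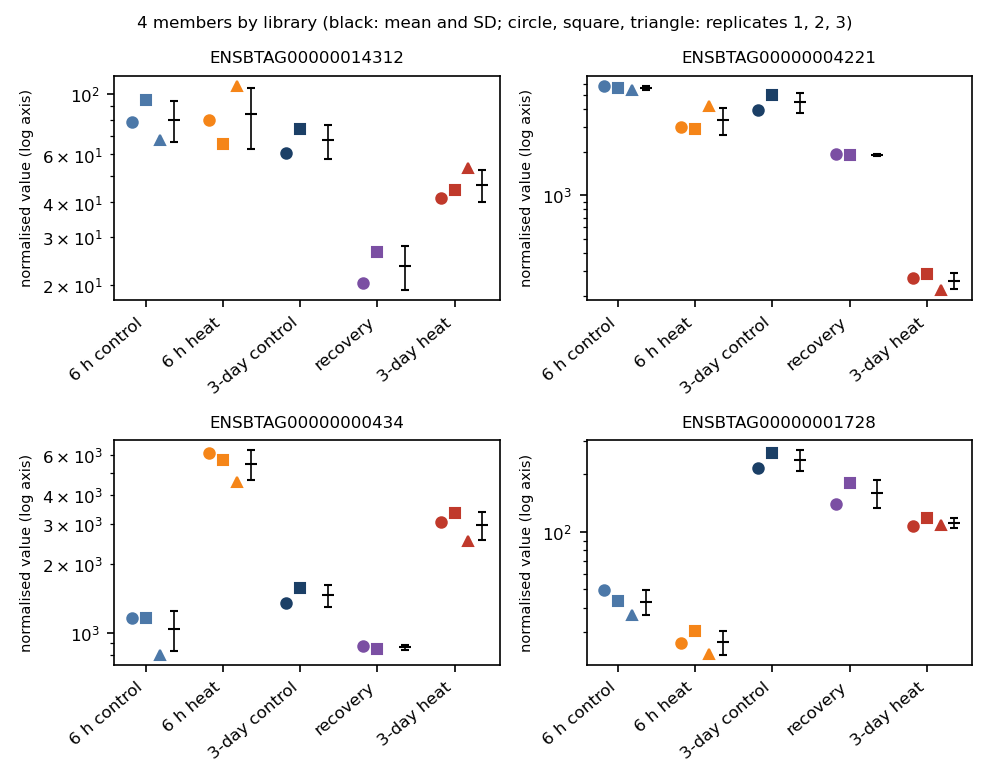
Normalised values of 4 members in each library on log axes, by group, with replicates 1, 2 and 3 as circles, squares and triangles and the mean and SD in black. The recovery values lie below both 3-day controls in each panel, while the 6 h heat values are level, lower, higher and lower than the 6 h control.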

How the data were processed

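The authors deposited 1 table of normalised signal per gene and library, scaled by DESeq according to its title. Per the submitters' processing notes, cutadapt, STAR and HTSeq were used with build ARS-UCD1.2. Versions, annotation and strand setting are not given in the sources used here. In each library 100% of values were whole multiples of the value of 1 read (within 0.01 reads), so reads were recovered for depth and count tests. Intervals from such reads would cover counting error only.

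Genes with a value of at least 10 in at least 2 libraries were tested (13684 of 16595, all 324 members among them). Values were fitted as log2(value + 1) with limma 3.58.1 in R 4.3.3, with 5 group means over 13 libraries, 8 residual degrees of freedom, a variance trend and Benjamini-Hochberg adjustment over all tested genes. Fold changes on this scale understate changes of low genes. Alternatives were edgeR 4.0.16 and DESeq2 1.42.0 on the recovered reads, other pseudocounts, filters, scalings and fits, the replicate number as a block, and each replicate left out. Equal depth by thinning and a mean value over the 3-day control and recovery libraries only were chosen after seeing the data. The limma procedure was tested on simulated counts with planted changes but no replicate 3 effect, so that run does not bear on this effect.

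The members and lists were chosen with earlier results of these data known. The rule for naming genes relied on gene symbols, but 0 of 16595 identifiers matched the reference table. The members named are therefore the lowest R in each class, the largest 6 h rise and the largest rise between the heated groups past the threshold. They were chosen after their values were seen. Replicate numbers come from the sample titles. Same-numbered libraries of the groups with 3 replicates deviated together (r from 0.27 to 0.72 over 9 pairs), but numbers 1 and 2 of different groups were as alike (0.27 to 0.48), and number 3 against these gave -0.62 to -0.35. Deviations are taken from each group's own mean, so the values of number 3 follow from those of numbers 1 and 2. The 3-day control and recovery numbers gave 0.08, a single value because the deviations within such a pair are opposite.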

Additional observations from a re-analysis of the deposited data

How the results depend on the processing

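The 324 members became 99 with R at most -0.7, 206 with a mean value of at least 200, and between 233 and 577 when single 3-day control or recovery libraries were left out. Pseudocounts, scalings and equal depth gave 298 to 342, and 240 of the 324 still met the rule at equal depth. Of members lower at 6 h (83), the replicate block gave 147, replicates 1 and 2 alone 148 and a term for replicate 3 gave 146. The shares of all tested genes were then 23.8%, 24% and 23.9%. Of those higher at 6 h (18), these 3 settings gave 30, 29 and 29, beside 20.8%, 20.6% and 20.6% of all tested genes. Leaving out single libraries gave 56 to 102 lower members, beside 13% and 15.9% of all tested genes at these ends. It gave 13 to 23 higher members, beside 10.6% and 15.5%. For members higher after 3 days than after 6 h at 40.5 °C (8), the replicate block gave 14, replicates 1 and 2 alone 25 and a term for replicate 3 gave 14. The shares of all tested genes were then 27.9%, 27.7% and 27.8%. Leaving out single libraries gave 5 to 11 higher members, beside 17.5% to 20.4% of all tested genes. The count of 220 lower members stayed between 187 and 252 under each alternative run, beside 17.7% and 28.3% of all tested genes at these ends. The 6 h log2 change of ENSBTAG00000014312, not past the threshold in any setting, was -0.25 within replicates 1 and 2 and went from -0.14 to 0.21 without single libraries, so its direction is not resolved. With 2 libraries in each arm, the recovery comparison limits what can be said of single members, and for members with few reads counting error adds to it.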
